A study of Mus musculus with 2 samples.

Results

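The vacuolar ATPase (V-ATPase) is the proton pump of lysosomes, endosomes, secretory and synaptic vesicles, and 10 of its genes were followed through the cells of the mouse hippocampus. They were taken by name: Atp6v0b, Atp6v0c, Atp6v0d1 and Atp6v0e of the membrane sector V0, Atp6v1a, Atp6v1b2, Atp6v1e1 and Atp6v1h of the cytosolic sector V1, and the accessory genes Atp6ap1 and Atp6ap2. All 10 were among the 12744 genes listed in both libraries. The rule used no measured value, but the members were chosen with earlier results of these data known. The tissue came from GlaKO mice and their wt littermates, all 57 weeks old, with 1 library per genotype. GlaKO mice lack alpha-galactosidase A, the lysosomal enzyme encoded by the X-linked gene Gla, and serve as a model of Fabry disease. The labels do not say which part of Gla is missing or which strain was used. Nor do they give the sex of the animals or how many went into a library. Both groups were anaesthetised with xylazine and ketamine and perfused with saline, and their hippocampi were dissociated with enzymes, cleared of debris on a gradient and sorted with the dead-cell dye 7-AAD before 3′ single-cell RNA sequencing.

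In this pump, ATP split by the V1 sector turns a central stalk and a ring of proteolipids in V0, which carries protons across the membrane. The acid made this way is needed by lysosomal hydrolases, alpha-galactosidase A among them, and in nerve terminals the same proton gradient drives the loading of neurotransmitter into vesicles. Atp6v0c encodes the c subunit that makes up most of the proteolipid ring, and Atp6v0b the related c″ subunit of the same ring. The question put to the data was at what level each gene stood in each cell class, how GlaKO compared with wt, and whether Atp6v0c moved like the other 9 members.

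Atp6v0c has processed copies in the mouse genome, which matters for a count of reads. The gene lies at chr17:24163866-24169702 on the minus strand of GRCm38, and its principal transcript has 1183 bases, of which bases 178 to 642 are coding. The pseudogene Atp6v0c-ps2, at chr6:37806086-37806550 on the plus strand, differed from the coding sequence by 1 base of 465 (99.8% identical), and Atp6v0c-ps1, at chr7:4412438-4412900 on the plus strand, was 97.6% identical. The last 60 coding bases of Atp6v0c (transcript bases 583 to 642) are shown beside both copies, read from GENCODE transcripts, with bases that differ from Atp6v0c in capitals.
Atp6v0c: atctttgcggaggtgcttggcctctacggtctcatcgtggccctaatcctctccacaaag
Atp6v0c-ps2: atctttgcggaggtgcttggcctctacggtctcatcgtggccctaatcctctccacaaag
Atp6v0c-ps1: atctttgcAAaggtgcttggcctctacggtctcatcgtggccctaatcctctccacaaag
Over these 60 bases Atp6v0c-ps2 had 0 mismatches and Atp6v0c-ps1 had 2. Of the 1094 stretches of 90 bases in the Atp6v0c transcript, 286 (26.1%) also occurred in another gene's transcript, all of them in Atp6v0c-ps2. None of the 211 such stretches in the last 300 bases did, which is the end that 3′ libraries sample most. None of the other 9 members shared a stretch of 90 bases with another gene. The pseudogenes were not analysed here.

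The other members are spread over the genome (GRCm38, GENCODE M21). Of the V0 genes, Atp6v0b lies at chr4:117884326-117887333, Atp6v0d1 at chr8:105524465-105566047 and Atp6v0e at chr17:26663231-26699647. Of the V1 genes, Atp6v1a lies at chr16:44085402-44139705, Atp6v1b2 at chr8:69088646-69113711, Atp6v1e1 at chr6:120794305-120822793 and Atp6v1h at chr1:5070018-5162529. Both accessory genes are on the X chromosome, Atp6ap1 at chrX:74297097-74304721 and Atp6ap2 at chrX:12587801-12617049. Atp6v0b, Atp6v1b2, Atp6v1e1 and Atp6v1h each overlap a gene on the opposite strand (Gm12841, Slc18a1, Slc25a18 and Rgs20). Atp6v1e1 also overlaps Gm25193 on its own strand. Whether counting used strand is not stated, so reads in those overlaps are uncertain.

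The promoters of the family were compared for CACGTG, the E-box core bound by basic helix-loop-helix factors such as TFEB, a regulator of lysosomal genes. RefSeq promoters (GRCm38.p6, 250 bases before to 50 after the start) were at hand for 8 members, of which 4, Atp6v0b, Atp6v0d1, Atp6v0e and Atp6v1a, held CACGTG, against 7.24% of 27025 genes. None of 11 other V-ATPase subunit genes with a promoter held it. The motif reads the same on both strands. Shown are Atp6v0b (chr4:117887280-117887579, minus strand), which held it at -36 and -18 (first base, counted from the start site), Atp6v1a (chr16:44139210-44139509, minus strand), which held it at -131, and for Atp6v0c (chr17:24169401-24169700, minus strand) the RefSeq start nearest to that of its principal transcript, which held none; capitals mark CACGTG.
Atp6v0b: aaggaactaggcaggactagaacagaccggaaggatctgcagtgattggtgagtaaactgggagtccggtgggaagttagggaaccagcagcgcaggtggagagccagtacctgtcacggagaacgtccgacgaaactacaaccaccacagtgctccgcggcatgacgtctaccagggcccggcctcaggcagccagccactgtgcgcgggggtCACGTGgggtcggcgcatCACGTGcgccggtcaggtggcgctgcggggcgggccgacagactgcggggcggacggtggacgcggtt
Atp6v1a: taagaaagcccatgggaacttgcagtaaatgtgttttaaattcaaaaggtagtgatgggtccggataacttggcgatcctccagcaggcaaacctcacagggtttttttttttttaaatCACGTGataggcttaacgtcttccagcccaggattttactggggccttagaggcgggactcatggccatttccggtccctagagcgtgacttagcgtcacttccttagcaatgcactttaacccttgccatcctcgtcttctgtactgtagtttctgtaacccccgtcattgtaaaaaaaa
Atp6v0c: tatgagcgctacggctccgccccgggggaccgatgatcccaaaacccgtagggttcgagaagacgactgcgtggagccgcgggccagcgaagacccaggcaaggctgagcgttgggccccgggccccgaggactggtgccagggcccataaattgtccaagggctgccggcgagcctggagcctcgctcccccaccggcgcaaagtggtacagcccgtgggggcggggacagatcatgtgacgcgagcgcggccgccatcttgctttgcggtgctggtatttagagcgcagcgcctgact
The other 2 listed starts of Atp6v0c held none either, nor did Atp6v1e1, Atp6ap1 and Atp6ap2. A longer form, CACGTG with GT before it and AC after it, was found in 0 of the 8 members. It was found in 0 of the 11 other subunit genes, against 0.359% of genes. GGGCGG, the core of the GC box bound by Sp1-type factors, was found on either strand in 6 of the 8 members and 6 of the 11 other subunit genes, against 35.9% of genes, and TATAAA in 1 member, Atp6v1e1, against 14.2%. These are matches of letters, not binding sites.

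The GlaKO library held 29914106 unique molecular identifiers (UMIs, each a counted RNA molecule) over 4572 barcodes, and the wt library 31929688 over 5443, with 6 barcodes in common. In all, 7 classes with at least 100 cells in each library were compared, named from marker genes with "-like" understood: choroid plexus epithelium (802 GlaKO and 2606 wt cells), oligodendrocytes (1338 and 849), their precursors (446 and 374), microglia (727 and 446), astrocytes (437 and 392), neurons (373 and 327) and T cells (208 and 169). At least 7 markers per class were detected in at least 10% of its cells in both libraries. The choroid plexus lies beside the hippocampus in the ventricle rather than within it. In the other 6 compared classes its markers stood at 0.355% to 1.10% of their choroid plexus level in GlaKO and at 1.42% to 2.38% in wt. Gla itself had 220 UMIs in GlaKO and 396 in wt, or 7.47 CPM (the count per 1000000 UMIs) in GlaKO and 12.4 CPM in wt (log2 ratio -0.74, 95% interval -0.98 to -0.50), so reads of the gene persisted in the library labelled GlaKO. By class the log2 ratio of Gla was -1.77 (-2.68 to -0.92) in oligodendrocyte precursors, -1.23 (-1.752 to -0.74) in choroid plexus and -0.89 (-1.56 to -0.21) in microglia. The intervals included 0 in oligodendrocytes (-0.12), astrocytes (-0.26), T cells (-1.10) and neurons (0.41, higher in GlaKO). A 3′ tag outside the deleted part would not check the label.

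Levels are given as CPM of all UMIs in a class, and ratios as log2 of GlaKO over wt with exact 95% intervals. With 1 library per genotype the intervals cover counting error only, no test was possible and every difference is one between 2 libraries. A 3′ UMI count is not scaled by transcript length, so levels are compared between classes and libraries and not between genes. Neighbouring classes are said to overlap where the ranges spanned by both libraries' intervals meet.

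Summed over the 10 genes, the level was highest in neurons, at 3333 CPM in GlaKO and 3406 CPM in wt. Further subunit genes of the pump were not part of this sum. Choroid plexus epithelium, which secretes cerebrospinal fluid, followed at 3082 CPM in GlaKO and 3235 CPM in wt, and oligodendrocyte precursors at 2661 CPM in GlaKO and 2854 CPM in wt. Astrocytes (2007 CPM in GlaKO, 2156 CPM in wt) and oligodendrocytes (2022 CPM in GlaKO, 2058 CPM in wt) overlapped and could not be ordered. Microglia had 1663 CPM in GlaKO and 1727 CPM in wt, and T cells the lowest level, 813 CPM in GlaKO and 771 CPM in wt. The order of classes was the same for both libraries except for astrocytes and oligodendrocytes. In smaller groups of cells, the sum was 1701 CPM in GlaKO and 1676 CPM in wt border macrophages, and 2543 CPM in GlaKO and 1797 CPM in wt endothelial cells. The endothelial clusters were unequally filled, and cluster 18 held 1 GlaKO and 72 wt cells. Choroid plexus markers in the endothelial cells stood at 38.5% of their choroid plexus level in GlaKO and 20.9% in wt, and their part in the sum was not tested. B cells had 1123 CPM in GlaKO and 1171 CPM in wt.

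**Figure D1:**
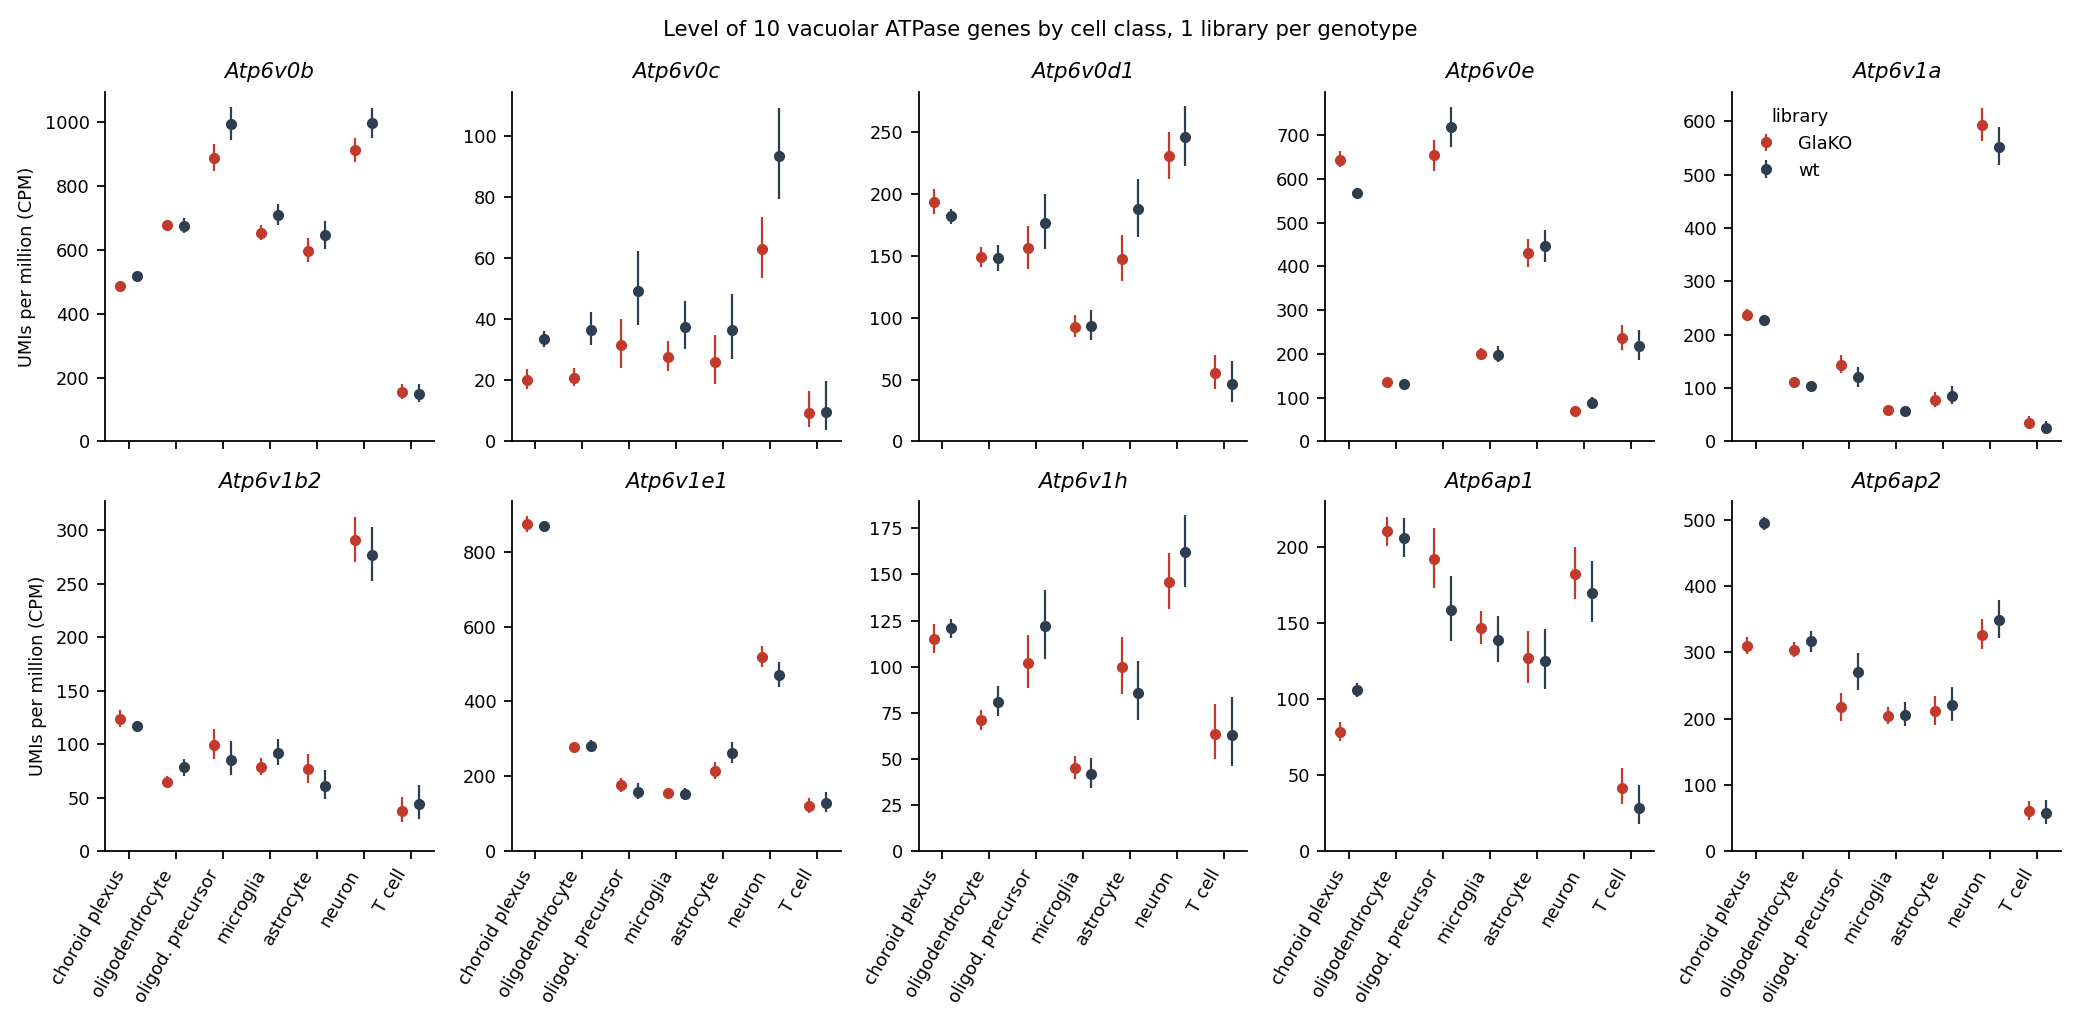
CPM (y axis) of each of the 10 genes in 7 cell classes (x axis), with GlaKO (red) left of wt (dark blue) and exact 95% Poisson intervals. Most genes stand highest in neurons or choroid plexus and lowest in T cells, Atp6v0e stands lowest in neurons, and wt lies above GlaKO for Atp6v0c in all classes but T cells, where the libraries are level.

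Among the V0 genes, Atp6v0b was highest in neurons (913 CPM in GlaKO, 997 CPM in wt) and oligodendrocyte precursors (889 CPM in GlaKO, 994 CPM in wt), which overlapped. It was lowest in T cells, at 154 CPM in GlaKO and 150.04 CPM in wt. Between these lay microglia, oligodendrocytes and astrocytes, whose ranges overlapped in turn (597 to 678 CPM in GlaKO, 646 to 710 CPM in wt), and then choroid plexus (486 CPM in GlaKO, 517 CPM in wt).

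Atp6v0d1, which encodes the d subunit that joins the ring to the central stalk, was also highest in neurons (231 CPM in GlaKO, 246 CPM in wt). Choroid plexus had 194 CPM in GlaKO and 182 CPM in wt. Microglia had 93.0 CPM in GlaKO and 93.8 CPM in wt, and T cells 55.1 CPM in GlaKO and 46.4 CPM in wt.

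Atp6v0e, which encodes the small e1 subunit of V0, went against the rest of the family. It was lowest in neurons, at 69.0 CPM in GlaKO and 87.2 CPM in wt. It was highest in oligodendrocyte precursors, at 653 CPM in GlaKO and 718 CPM in wt, and these overlapped with choroid plexus at 644 CPM in GlaKO and 568 CPM in wt. Astrocytes followed with 430 CPM in GlaKO and 445 CPM in wt, and mature oligodendrocytes had 136 CPM in GlaKO and 131 CPM in wt. The highest class exceeded the lowest by 9.46-fold in GlaKO and 8.23-fold in wt. The paralog Atp6v0e2, which encodes the e2 subunit and is known from brain, had 290.3 CPM in GlaKO and 299 CPM in wt neurons, and 172 CPM in GlaKO and 154 CPM in wt oligodendrocyte precursors. It was low in choroid plexus (29.7 CPM in GlaKO, 18.1 CPM in wt), microglia (9.89 CPM in GlaKO, 4.09 CPM in wt) and T cells (7.63 CPM in GlaKO, 10.9 CPM in wt).

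Of the V1 genes, Atp6v1a, which encodes the catalytic A subunit, had the widest spread. It stood at 594 CPM in GlaKO and 552 CPM in wt neurons, and at 34.8 CPM in GlaKO and 24.6 CPM in wt T cells, a 17.1-fold range in GlaKO and 22.5-fold in wt. Choroid plexus was next to neurons with 236 CPM in GlaKO and 227 CPM in wt, and did not overlap with them. Atp6v1b2, which encodes the B2 subunit that pairs with A at the catalytic sites, followed the same course, at 291 CPM in GlaKO and 277 CPM in wt neurons. From oligodendrocyte precursors down to T cells, neighbouring classes overlapped for Atp6v1b2, between 37.3 and 99.4 CPM in GlaKO and between 43.6 and 91.7 CPM in wt.

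Atp6v1e1, which encodes a subunit of the outer stalks, was highest in choroid plexus rather than in neurons: 874 CPM in GlaKO and 869 CPM in wt choroid plexus, and 519 CPM in GlaKO and 471 CPM in wt neurons. Atp6v1h, which encodes the regulatory H subunit, had the narrowest range of the 10. It was highest in neurons (146 CPM in GlaKO, 162 CPM in wt) and low in microglia (44.8 CPM in GlaKO, 41.8 CPM in wt) and T cells (63.6 CPM in GlaKO, 62.7 CPM in wt), which overlapped.

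The accessory gene Atp6ap1, whose product Ac45 helps assemble and sort the pump, was highest in oligodendrocytes, at 211 CPM in GlaKO and 206 CPM in wt. They overlapped with neurons (183 CPM in GlaKO, 170.2 CPM in wt), and neurons with oligodendrocyte precursors (192 CPM in GlaKO, 159 CPM in wt). Choroid plexus stood low, at 78.5 CPM in GlaKO and 106 CPM in wt. Atp6ap2, the prorenin receptor, which is also a part of the pump's membrane sector, had 310.2 CPM in GlaKO and 495 CPM in wt choroid plexus, which overlapped with neurons at 327 CPM in GlaKO and 349 CPM in wt.

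Over the 14 values of 7 classes and 2 libraries, the levels of the members mostly went together on the log2(CPM + 1) scale. The highest Pearson r was 0.94 between Atp6v0b and Atp6ap1, and 0.93 between the A and B2 subunit genes Atp6v1a and Atp6v1b2. Atp6v0e was the exception, with r between -0.34 (Atp6v1b2) and 0.08 (Atp6v1h). The points share their libraries and the T cells that are low for most genes, so these values are descriptions. Among 1835 genes with at least 100 UMIs throughout, those with the highest r with the summed members were Fkbp2 (0.94), Arl1 (0.93), Wbp4 (0.93), Vdac3 (0.93) and Rab18 (0.92).

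Against wt, Atp6v0c was lower in GlaKO in every compared class in which it had 100 UMIs or more. The summed RNA of the other 9 members was nearly level. In choroid plexus epithelium Atp6v0c had 20.2 CPM in GlaKO and 33.6 CPM in wt (150 and 613 UMIs), a log2 ratio of -0.73 (-0.998 to -0.47). In oligodendrocytes it had 20.9 CPM in GlaKO and 36.7 CPM in wt (189 and 181 UMIs), a log2 ratio of -0.81 (-1.11 to -0.51). In oligodendrocyte precursors it had 31.5 CPM in GlaKO and 49.3 CPM in wt (63 and 68 UMIs), a log2 ratio of -0.65 (-1.17 to -0.13). The counting intervals of these 3 ratios all lay below 0.

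Neurons, the class with the most Atp6v0c, had 63.0 CPM in GlaKO and 93.6 CPM in wt (156 and 159 UMIs), a log2 ratio of -0.57 (-0.90 to -0.24). Microglia had 27.8 CPM in GlaKO and 37.7 CPM in wt (132 and 92 UMIs), a log2 ratio of -0.44 (-0.83 to -0.04). Both differences were smaller than 1.5-fold. Astrocytes had 44 GlaKO and 48 wt UMIs (26.1 CPM in GlaKO, 36.5 CPM in wt) and a log2 ratio of -0.48, whose interval of -1.11 to 0.14 included 0. T cells had 11 GlaKO and 7 wt UMIs (9.33 CPM in GlaKO, 9.55 CPM in wt), and at this depth no difference was detectable (log2 ratio -0.03, -1.53 to 1.57). In the small cluster left unnamed, Atp6v0c had 7 GlaKO and 18 wt UMIs, or 24.2 CPM in GlaKO and 70.5 CPM in wt. Among its 10 leading genes were 2 neuron markers, Reln and Snhg11, beside Ndnf, Nhlh2 and Lhx1, but also the fibroblast marker Dcn. In a finer clustering a group of 53 GlaKO and 56 wt cells led by Reln, Ndnf, Nhlh2 and Lhx1 was named neuron. The cells of the unnamed cluster were not among the neurons compared.

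**Figure D2:**
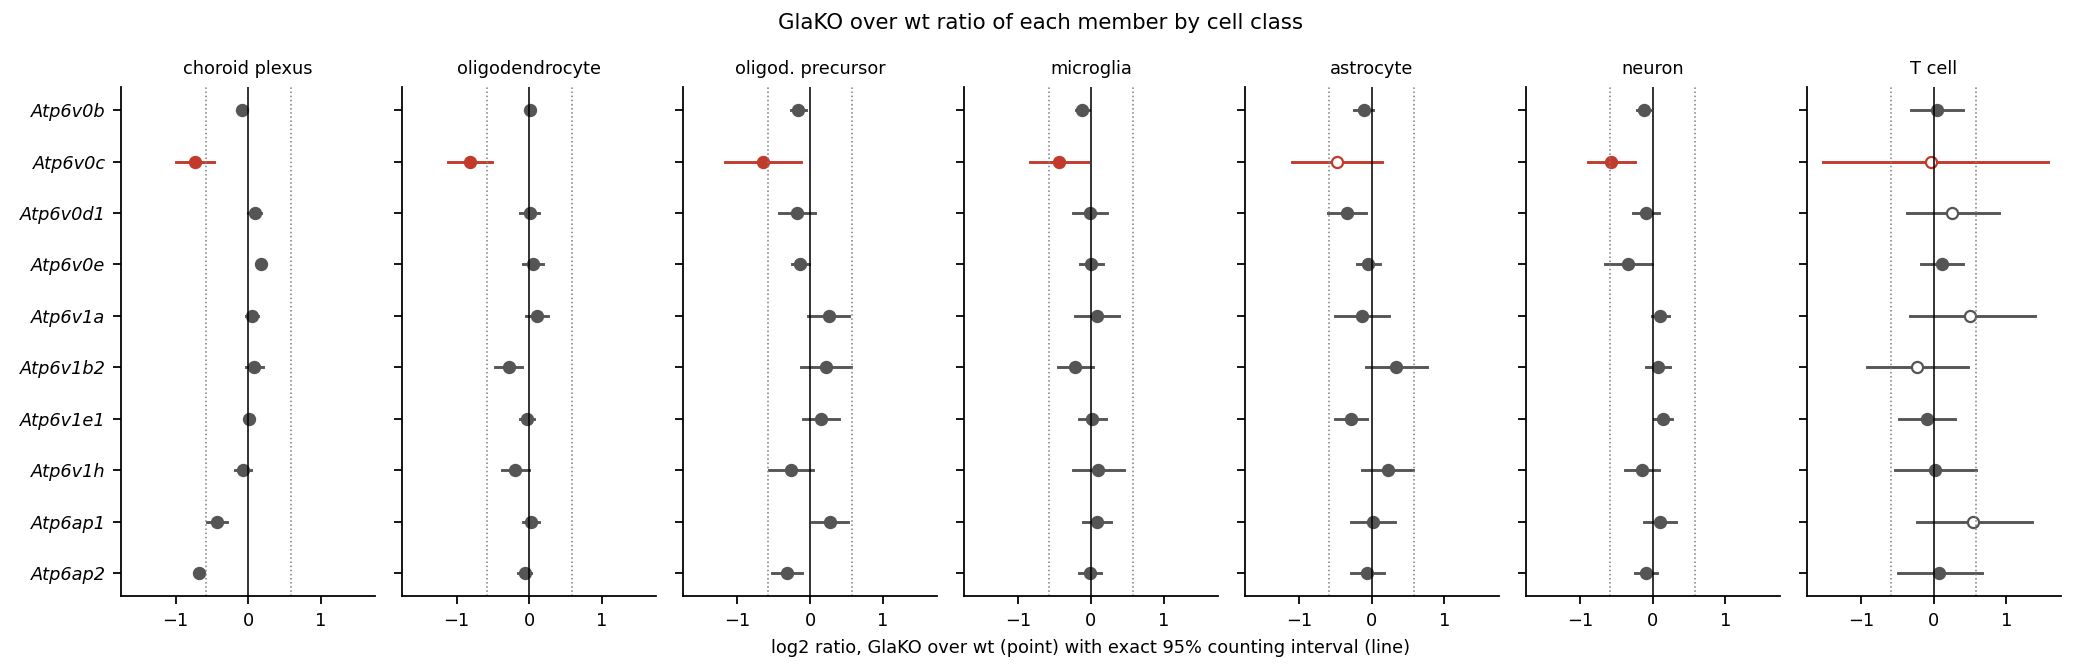
Log2 ratio of GlaKO over wt (x axis) for each member (rows) in 7 cell classes (panels), with exact 95% counting intervals; open points have under 100 UMIs in the class and dotted lines mark 1.5-fold. Atp6v0c (red) is the lowest point in the 5 panels from choroid plexus to neuron in which it is filled, while most other members lie near 0.

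A difference past 1.5-fold was used to call a gene. Of the 10 members, 2 were called lower in choroid plexus (Atp6v0c and Atp6ap2), against 2.63% of the 9435 genes compared there, and 0 were called higher, against 5.16%. In oligodendrocytes 1 member, Atp6v0c, was called lower, against 1.21% of genes, and 0 higher, against 1.67%. Oligodendrocyte precursors likewise had Atp6v0c alone called lower, against 1.25%, and none higher, against 2.14%. No member was called in microglia (background 1.45% lower and 2.39% higher), astrocytes (1.17% and 2.47%), neurons (1.51% and 2.65%) or T cells (1.72% and 6.19%), with 9 members compared in astrocytes, 5 in T cells and 10 in the others. Lower calls therefore came to 4 of 64 pairs of member and class. Ratios at or below that of Atp6v0c were found for 1.27% of all genes in choroid plexus, 0.591% in oligodendrocytes, 0.874% in oligodendrocyte precursors, 3.85% in microglia and 1.66% in neurons.

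Summed, the other 9 members hardly differed, though such a sum is weighted to the genes with the most UMIs. Their summed level was 3061 CPM in GlaKO and 3201 CPM in wt choroid plexus (log2 ratio -0.06, -0.09 to -0.04), and 2001 CPM in GlaKO and 2021 CPM in wt oligodendrocytes (-0.01, -0.05 to 0.02). The log2 ratio of this sum was -0.09 in oligodendrocyte precursors, -0.05 in microglia, -0.10 in astrocytes, -0.02 in neurons and 0.08 in T cells. Over all cells of a library it was -0.25, with choroid plexus making up 17.8% of GlaKO cells and 48.1% of wt cells, so whole-library values also reflect the mix of classes.

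Set against the other 9, Atp6v0c was a smaller part of the RNA of the 10 members in GlaKO. Per 1000 UMIs of the other members, choroid plexus had 6.61 of Atp6v0c in GlaKO and 10.5 in wt, a log2 ratio of ratios of -0.67 (-0.94 to -0.41). Oligodendrocytes had 10.5 in GlaKO and 18.1 in wt (-0.79, -1.10 to -0.49), and neurons 19.3 in GlaKO and 28.3 in wt (-0.55, -0.89 to -0.22). Oligodendrocyte precursors had 11.97 in GlaKO and 17.6 in wt (-0.55, -1.08 to -0.03). The intervals of microglia (16.98 in GlaKO, 22.3 in wt; -0.39, -0.79 to 0.01) and astrocytes (13.2 in GlaKO, 17.2 in wt; -0.39, -1.01 to 0.24) included 0. In the 5 classes with enough Atp6v0c, 0 of the other 9 members had a lower ratio than it. Their median was 0.01 in choroid plexus, oligodendrocytes and microglia, -0.14 in oligodendrocyte precursors and -0.09 in neurons.

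**Figure D3:**
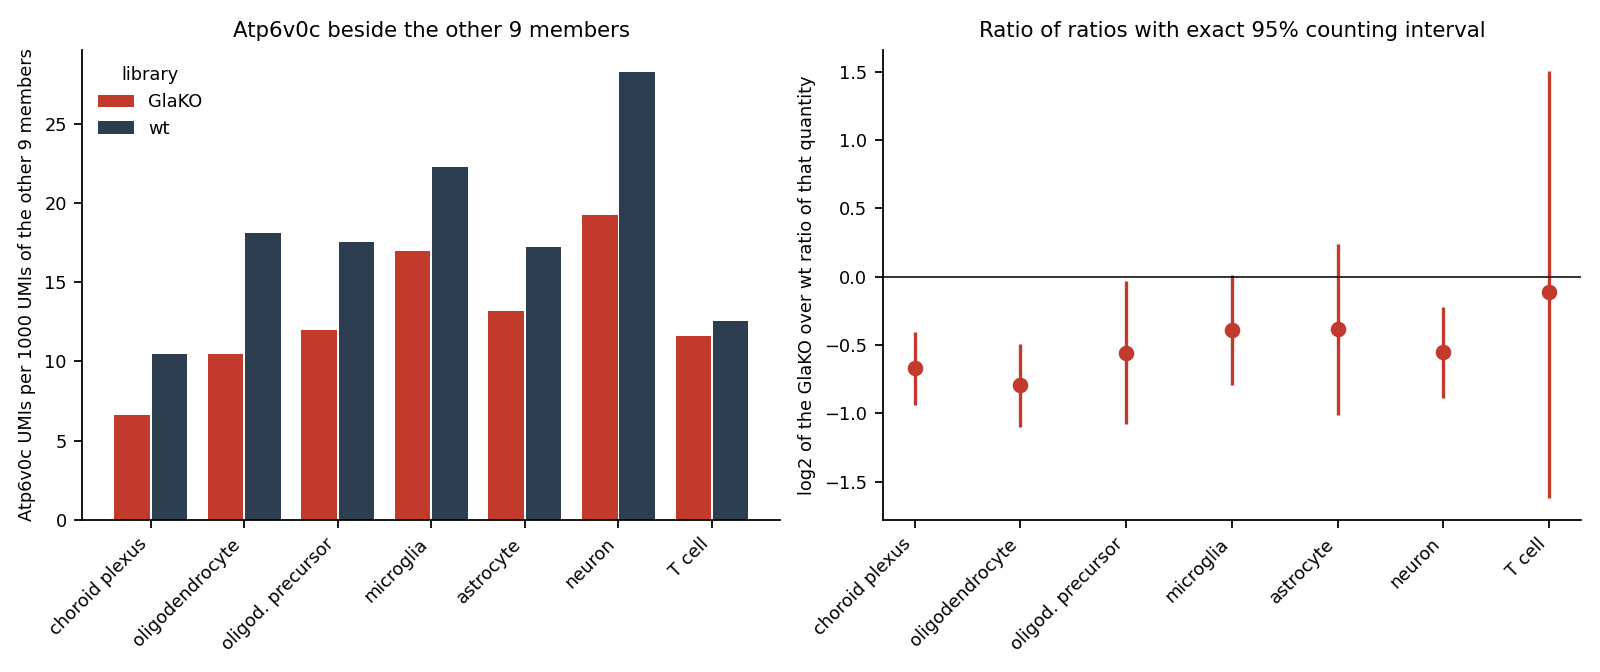
Left, UMIs of Atp6v0c per 1000 UMIs of the other 9 members (y axis) in 7 cell classes, with GlaKO (red) left of wt (dark blue); right, the log2 ratio of GlaKO over wt of that quantity with exact 95% counting intervals. Bars are lower in GlaKO in all 7 classes, and 4 of the 7 intervals lie below 0.

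The other V0 genes followed here stayed within 1.5-fold where compared. Atp6v0b, the other gene of the ring, mostly went the same way as Atp6v0c but by less. Its log2 ratio was -0.09 (-0.14 to -0.03) in choroid plexus and -0.16 (-0.26 to -0.06) in oligodendrocyte precursors. It was -0.12 (-0.20 to -0.03) in microglia and -0.13 (-0.22 to -0.04) in neurons. The Atp6v0b intervals included 0 in oligodendrocytes (0.01, -0.06 to 0.07), astrocytes (-0.11, -0.25 to 0.02) and T cells (0.04, -0.31 to 0.40). Atp6v0d1 was furthest from 0 in astrocytes, at -0.35 (-0.61 to -0.09), with 148 CPM in GlaKO and 188 CPM in wt. Atp6v0e was higher in choroid plexus by 0.18 (0.13 to 0.23) and lower in neurons by a log2 ratio of -0.34 (-0.66 to -0.01), both within 1.5-fold.

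The V1 genes had log2 ratios between -0.29 and 0.33 in all classes in which they were compared. The largest were Atp6v1b2 in astrocytes, at 0.33 (-0.08 to 0.75), with 76.5 CPM in GlaKO and 60.8 CPM in wt, and Atp6v1e1 in astrocytes, at -0.29 (-0.51 to -0.07), with 214 CPM in GlaKO and 261 CPM in wt. In oligodendrocytes Atp6v1b2 stood at -0.28 (-0.47 to -0.09) and Atp6v1h at -0.19 (-0.37 to -0.01). Atp6v1a lay between -0.13 and 0.26 in the 6 classes in which it was compared.

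The accessory genes differed in choroid plexus epithelium. Atp6ap2 had 310.2 CPM in GlaKO and 495 CPM in wt (2300 and 9029 UMIs), a log2 ratio of -0.67 (-0.74 to -0.61). Atp6ap1 had 78.5 CPM in GlaKO and 106 CPM in wt (582 and 1933 UMIs), a log2 ratio of -0.43 (-0.57 to -0.30). Elsewhere Atp6ap2 lay between -0.10 and 0.07, except for -0.32 (-0.52 to -0.11) in oligodendrocyte precursors, where Atp6ap1 stood at 0.28 (0.03 to 0.52). Gla is X-linked like both of them. The labels do not give the sex of the animals. Over all cells, the Y-linked genes Ddx3y (2756 UMIs in GlaKO, 3036 in wt) and Eif2s3y (2482 in GlaKO, 1575 in wt) were detected in both libraries. So were the Y-linked genes Kdm5d (592 UMIs in GlaKO, 419 in wt) and Uty (797 in GlaKO, 672 in wt). The 310 X-linked genes compared in choroid plexus had a median log2 ratio of 0.08, against 0.06 for all genes, and 7 of them (2.26%) were at or below the ratio of Atp6ap2, against 1.60% of all genes.

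Within the choroid plexus Atp6ap2, Atp6ap1 and Atp6v0c varied more with the cluster of cells than between the libraries. The clusters differed in the share of mitochondrial UMIs, with cluster medians from 0.316% to 3.51% in GlaKO and from 0.237% to 5.43% in wt. In cluster 10, which had the highest share, Atp6ap2 stood at 860 CPM in GlaKO and 1180 CPM in wt. In cluster 5, which had the lowest share and none of the class markers among its 10 leading genes, it stood at 68.4 CPM in GlaKO and 80.9 CPM in wt. Atp6ap1 ran from 217 CPM in GlaKO and 232 CPM in wt down to 10.7 CPM in GlaKO and 18.2 CPM in wt in the same clusters. Atp6v1e1 ran the other way, with 556 CPM in GlaKO and 617 CPM in wt in cluster 10 and 1024 CPM in GlaKO and 1059 CPM in wt in cluster 5.

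Inside single clusters the Atp6ap2 ratio was smaller than over the class, at -0.46 in clusters 10 and 1, -0.52 in cluster 4, -0.44 in cluster 6 and -0.24 (-0.61 to 0.12) in cluster 5. Atp6v0c stood at -0.91 (-1.62 to -0.26) in cluster 10 and -0.67 (-1.15 to -0.21) in cluster 1. It stood at -0.55 (-1.17 to 0.05) in cluster 4 and -0.37 (-1.02 to 0.24) in cluster 6, with intervals that included 0. It was at 0.24 in cluster 5, where 16 GlaKO and 38 wt UMIs gave an interval of -0.70 to 1.12. GlaKO choroid plexus cells were also deeper, with a median of 8611.5 UMIs against 5870.5 in wt, and had a lower median mitochondrial share, 1.20% against 2.46%. With 5 depth ranges given equal weight, the class ratios were -0.27 for Atp6ap2, -0.07 for Atp6ap1 and -0.52 for Atp6v0c. The Atp6v0c ratio in oligodendrocyte precursors was -0.27 by the same weighting, so that only the oligodendrocyte value of -0.70 stayed past 1.5-fold. The part of depth and of the mix of clusters in the class ratios was not tested beyond these values.

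**Figure D4:**
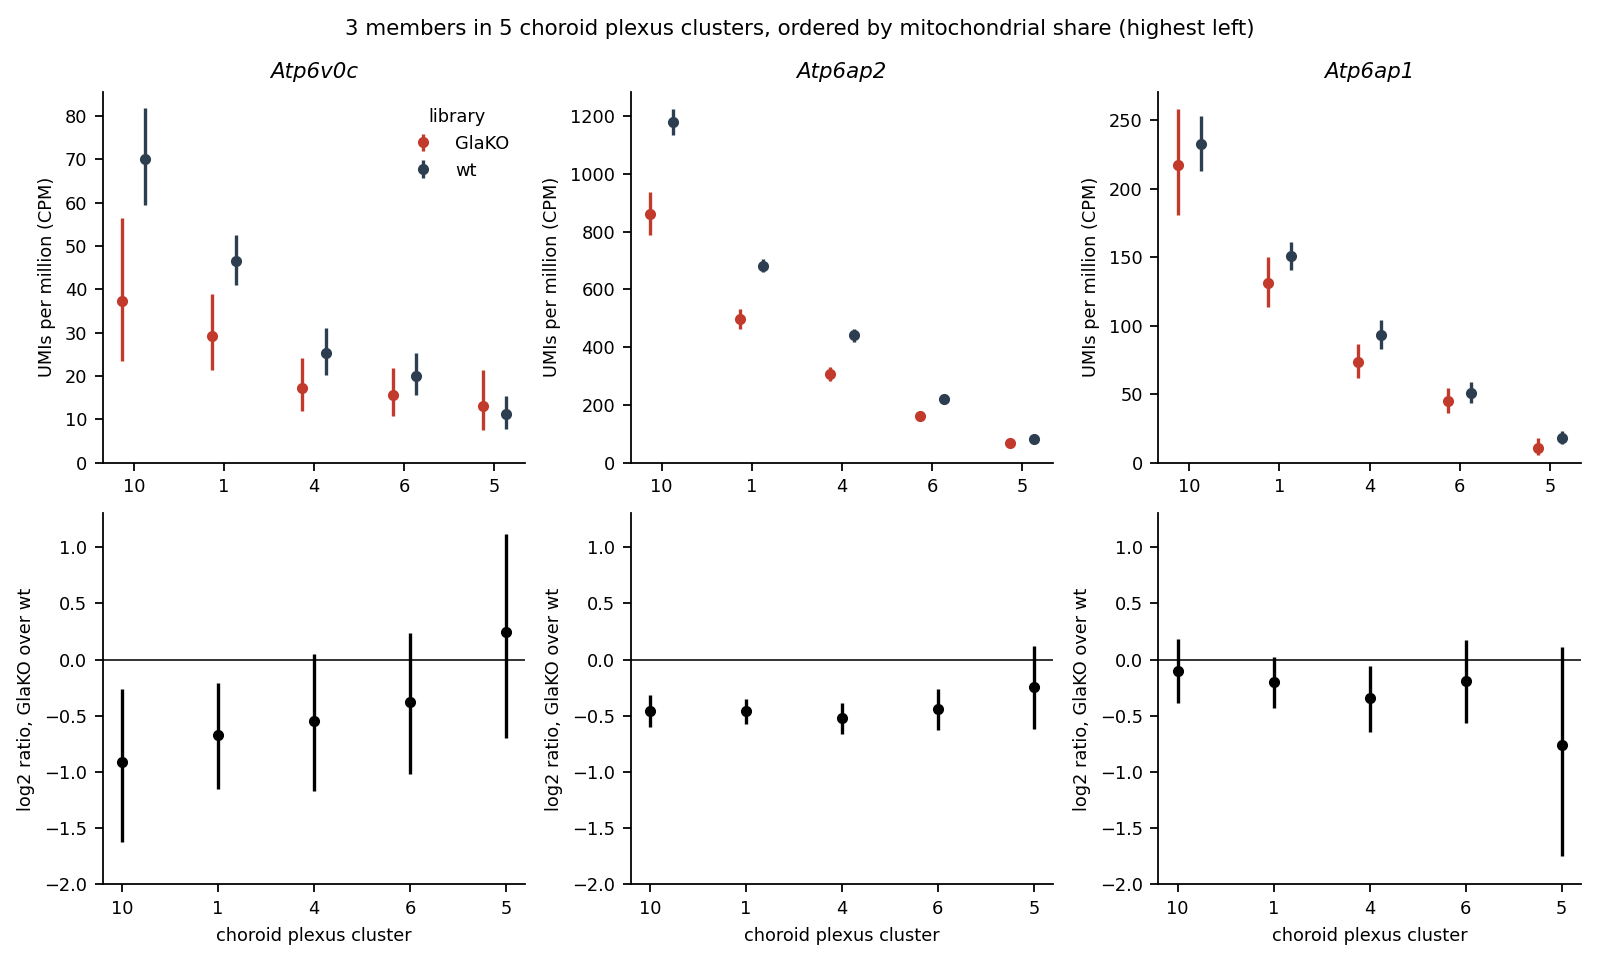
Upper row, CPM (y axis) of Atp6v0c, Atp6ap2 and Atp6ap1 in 5 choroid plexus clusters (x axis, in order of falling mitochondrial share), with GlaKO (red) left of wt (dark blue) and exact 95% Poisson intervals; lower row, log2 ratio of GlaKO over wt. Levels of all 3 genes decline from cluster 10 to cluster 5 in both libraries, and Atp6ap2 is lower in GlaKO in all 5 clusters, in 4 of them with an interval below 0.

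In oligodendrocytes the Atp6v0c log2 ratio was -0.99 (-1.43 to -0.55) in cluster 0. It was -0.61 (-1.22 to 0.02) in cluster 9 and -0.62 (-1.24 to -0.0023) in cluster 11, each with under 100 UMIs. In neurons it was -0.69 (-1.08 to -0.30) in cluster 7 and -0.42 (-1.09 to 0.29) in cluster 15. In oligodendrocyte precursors, cluster 13 stood at -0.95 (-1.83 to -0.09) and cluster 8 at -0.22 (-0.88 to 0.44). In microglia it was -0.46 (-0.89 to -0.03) in cluster 2 and -0.12 (-1.37 to 1.20) in cluster 14, where 15 GlaKO and 10 wt UMIs were counted.

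RNA of other cells also differed between the GlaKO and wt libraries. The erythroid markers were 4 haemoglobin genes, all detected in both libraries, and their sum was higher in GlaKO in all 7 classes. It was 976 CPM in GlaKO and 22.9 CPM in wt oligodendrocytes, and 105 CPM in GlaKO and 34.7 CPM in wt choroid plexus. The 8 oligodendrocyte markers summed to 424 CPM in GlaKO and 230 CPM in wt choroid plexus. The 7 choroid plexus markers, all detected in wt and 6 in GlaKO, summed to 33.5 CPM in GlaKO and 107 CPM in wt neurons. Their part in the Atp6v0c ratios was not tested.

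Genes with a pattern of ratios like that of Atp6v0c were sought over the 5 classes in which it had 100 UMIs or more. Among 4486 genes with at least 100 UMIs in all 5, 337 (7.51%) were lower in GlaKO in all 5. The 5 nearest by Euclidean distance of log2 ratios were Gstp1 (0.42), a glutathione transferase gene, then Grcc10 (0.45), Bloc1s1 (0.51), a subunit gene of the complex that builds lysosome-related organelles, Rpl13a (0.57), a ribosomal protein gene, and Polr2l (0.59), a subunit gene of RNA polymerases. Gstp1 stood between -0.95 in choroid plexus and -0.62 in oligodendrocyte precursors, and Grcc10 between -0.97 in oligodendrocytes and -0.60 in neurons.

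All 5 of these genes share stretches of 90 bases with another gene's transcript, against 983 of 4438 genes (22.2%) with a principal transcript. The shared part was 54.8% of the Gstp1 transcript (with Gstp2), 40.6% of Grcc10 (with Gm45234), 60.5% of Bloc1s1 (with Rdh5), 55.6% of Rpl13a (with Gm45713) and 13.1% of Polr2l (with Usp50). In the last 300 bases, the share was 100% for Gstp1, 97.2% for Grcc10 and 84.4% for Bloc1s1, but 0% for Rpl13a and Polr2l, as for Atp6v0c; 3.26% of 12284 genes had a shared stretch there. Their counts are therefore uncertain where reads match both genes. The 983 genes with a shared stretch had a median log2 ratio of 0.08 in choroid plexus, against 0.08 for the 3455 genes without. Their medians were 0.0028 against 0.03 in oligodendrocytes, 0.0091 against 0.00063 in oligodendrocyte precursors, -0.03 against -0.02 in microglia and -0.05 against -0.01 in neurons. Lower calls were made for 1.83% of genes with a shared stretch and 0.810% of those without in choroid plexus, and for 1.12% and 0.347% in oligodendrocytes. In oligodendrocyte precursors the shares were 1.32% and 0.926%, in microglia 0.916% and 1.13%, and in neurons 1.42% and 1.27%. The part of shared sequence in the ratio of Atp6v0c was not tested.

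**Figure D5:**
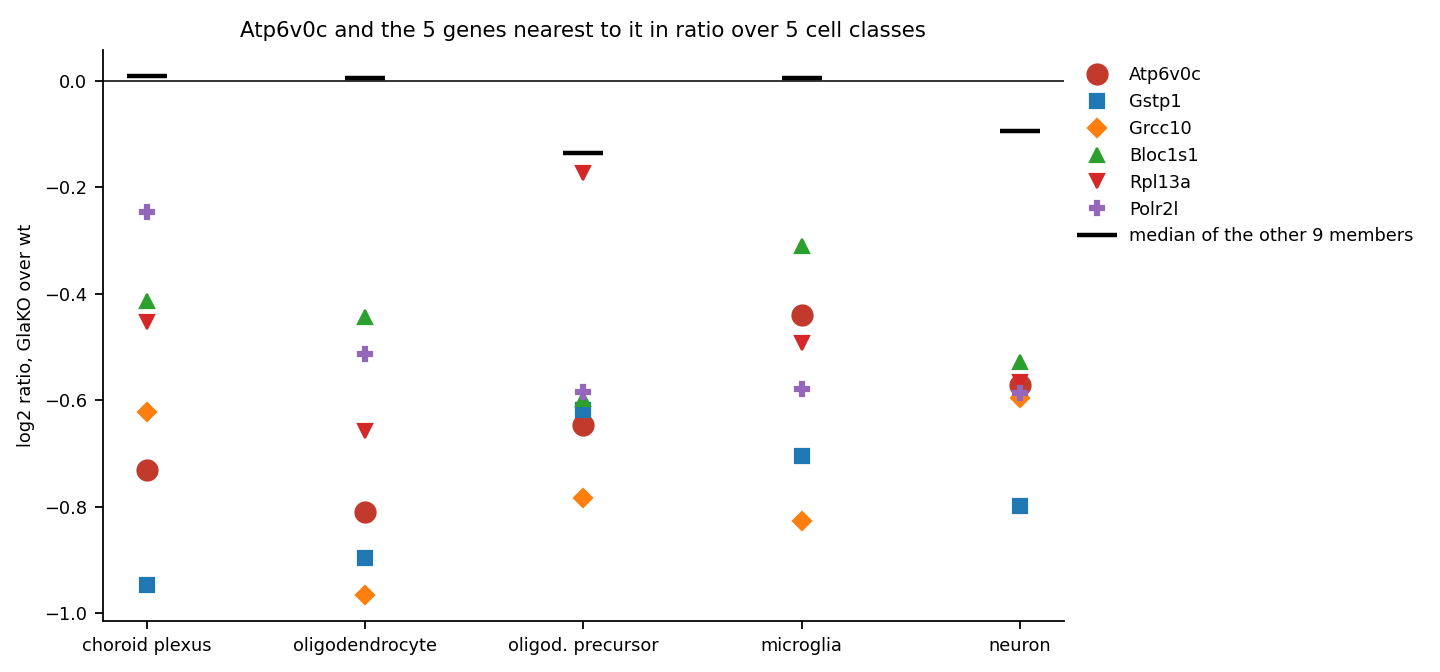
Log2 ratio of GlaKO over wt (y axis) of Atp6v0c (large red circles) and the 5 genes nearest to it in 5 cell classes (x axis), with the median of the other 9 V-ATPase members as black bars. Atp6v0c lies between -0.81 and -0.44, the 5 nearest genes all lie below 0, and the medians of the other members lie between -0.14 and 0.01.

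Of 15 further V-ATPase subunit genes, 9 were compared in choroid plexus, of which 6 had a ratio below 0, 0 were called lower and 1, Atp6v0e2, was called higher. Of all genes compared there, 38.5% were below 0, 2.63% were called lower and 5.16% were called higher. Atp6v0e2 had 29.7 CPM in GlaKO and 18.1 CPM in wt there (log2 ratio 0.71, 0.46 to 0.97). The lowest of the 9 was Tcirg1, the a3 subunit gene, at -0.48 (-1.17 to 0.17), and the neuronal a1 subunit gene Atp6v0a1 stood at -0.38 (-0.55 to -0.21). The median of the 9 was -0.01, against 0.06 for all genes. In the other 6 classes, none of 3 to 8 compared genes was called, and medians lay between -0.14 and 0.05. Of all genes in those classes, 1.17% to 1.72% were called lower and 1.67% to 6.19% higher. In microglia, all 7 were below 0, against 53.7% of all genes. Tcirg1 was lowest at -0.31 (-0.47 to -0.14), from 161 CPM in GlaKO and 199 CPM in wt.

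Of 14 genes that assemble or regulate the pump, 13 were compared in choroid plexus and 13 in oligodendrocytes, and in both classes 1, Rnasek, was called lower, against 2.63% and 1.21% of all genes. Rnasek, whose product associates with the pump, had 10.8 CPM in GlaKO and 25.0 CPM in wt choroid plexus (log2 ratio -1.21, -1.57 to -0.87), and 8.52 CPM in GlaKO and 18.6 CPM in wt oligodendrocytes (-1.13, -1.58 to -0.68). In its transcript 97.7% of stretches were shared with Gm21988, a transcript that overlaps it on the same strand. How reads that match both were counted is not stated, so the Rnasek count is uncertain. Over all cells Rnasek had 7.97 CPM in GlaKO and 22.3 CPM in wt (-1.48), and in the other 5 classes it had under 100 UMIs. There it stood at -1.74 (-2.97 to -0.61) in oligodendrocyte precursors, -2.09 (-2.885 to -1.33) in microglia and -1.64 (-2.44 to -0.88) in neurons. It stood at -2.23 (-4.71 to -0.31) in astrocytes, from 3 GlaKO and 11 wt UMIs, and at -0.95 (-2.32 to 0.39) in T cells. Gm21988 stood at -0.12 (-0.53 to 0.27) in choroid plexus and -0.50 (-1.01 to 0.02) in oligodendrocytes. None of the genes with enough UMIs to be compared was called in the other 5 classes. Of all genes there, 1.17% to 1.72% were called lower and 2.14% to 6.19% higher. Medians of the compared genes lay between -0.18 and 0.35, the latter in T cells from 1 gene, Tmem9b.

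Of 18 lysosomal membrane and ion transport genes, 15 were compared in choroid plexus with a median of -0.19 (0.06 for all genes), and 11 were below 0, against 38.5% of all genes. Clcn7, the lysosomal chloride-proton exchanger, was called lower there (2.63% of all genes were), at 3.64 CPM in GlaKO and 5.64 CPM in wt (log2 ratio -0.63, -1.30 to -0.01), and none was called elsewhere. Npc1, the lysosomal cholesterol transporter, was the highest in choroid plexus at 0.29. Of 13 Ragulator and Rag GTPase genes, which link the pump to mTORC1 at the lysosome, none was called in any of the 7 classes, and medians lay between -0.09 and 0.11. Lamtor5, a Ragulator subunit gene, was lowest in neurons at -0.45 (-0.71 to -0.18) and highest in oligodendrocyte precursors at 0.49 (0.16 to 0.82). Of 4 MiT-TFE transcription factor genes, 3 were compared in choroid plexus, oligodendrocytes and microglia, and none was called. Over the 7 classes, 1.17% to 2.63% of all genes were called lower and 1.67% to 6.19% higher. Tfeb itself stood at 0.18 (-0.25 to 0.60) in choroid plexus, 0.21 (-0.06 to 0.48) in oligodendrocytes and -0.19 (-0.60 to 0.23) in microglia.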

How the data were processed

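The authors deposited raw counts: whole numbers of UMIs per gene and filtered cell barcode, with at least 982 genes each. Per the submitters' processing notes, the build was mm10 and the tools included Cell Ranger 6.0.1 and Seurat 4; how reads that match several genes were counted is not stated in the sources used here. Scrublet (scanpy 1.11.5) removed 59 GlaKO (1.29%) and 26 wt barcodes (0.478%), a share so low in wt that doublets may remain. Both libraries were clustered jointly without batch correction (2000 variable genes, 30 components, 15 neighbours, Leiden resolution 1.0), leaving out mitochondrial, ribosomal, stress, erythroid and sex-linked genes. A name needed at least 3 markers detected in at least 10% of cells.

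Genes with at least 100 summed UMIs in a class were compared. Intervals are exact Poisson (levels), conditional binomial (ratios) and conditional odds ratio (ratio of ratios), in scipy 1.17.1. The naming rule took all members, list genes past 1.5-fold whose interval excluded 1, the extremes of each list, and the 5 genes nearest in pattern over classes with 100 UMIs of Atp6v0c. Other genes, and the comparisons of X-linked genes and of shared stretches, were chosen after their values were seen. Members and lists were chosen with earlier results of these data known. Transcripts and positions come from GENCODE M21, and the stretch length of 90 bases was chosen here. Alternatives included TMM scaling (edgeR 4.0.16), other minimum counts, thinning, equal weights, stricter doublet removal and other clusterings.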

Additional observations from a re-analysis of the deposited data

How the results depend on the processing

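No paired analysis was possible because each genotype has 1 library, and leaving out a library was not possible either. The Atp6v0c ratio stayed below 0 in all 50 recomputed values over 5 classes (-1.23 to -0.22), and the ratio of ratios in all 40 (-1.15 to -0.13). Of the 50, 48 stayed within their interval and 2 moved, and of the 40, 39 stayed and 1 moved. All of these values reuse the same libraries. In choroid plexus Atp6v0c stood at -1.23 with cells thinned to 1000 UMIs and -1.11 with libraries clustered alone, and the ratio of ratios at -1.15 with thinning. The sum of the other 9 in choroid plexus was -0.15 with TMM, -0.10 without the 4% highest doublet scores, -0.22 with libraries clustered alone, -0.030 with clusters weighted equally, and 0.012, the other direction, with depth ranges weighted equally. The sum was 0.042 in oligodendrocytes and 0.013 in microglia with depth ranges weighted equally, and -0.071 in neurons with clusters weighted equally. Clustered alone, wt clusters of 585 and 395 cells and a GlaKO cluster of 127 cells that were nearest to choroid plexus stayed unnamed, and without the highest doublet scores so did clusters of 220 GlaKO and 435 wt and of 118 GlaKO and 468 wt cells, so the class then held other cells. Pairs of member and class called lower numbered 4 in the reported values and 1 to 6 over 12 alternatives: 6 with libraries clustered alone, and 2 at a minimum of 500 UMIs, 1 with depth ranges and 2 with clusters weighted equally. Of 576 recomputed ratios of the other 9 singly, 524 stayed within their interval, 48 moved and 4 turned: Atp6v0b in choroid plexus at 0.045 (depth ranges) and 0.027 (clusters), and Atp6v0e at -0.066 in choroid plexus (libraries alone) and 0.30 in neurons (thinned). Other causes were not tested. At the depth of Atp6v0c, ratios in astrocytes and T cells could not be resolved.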
